A study of Mus musculus with 15 samples.

Results

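MHC class II is the surface complex that shows peptides taken from endosomes to CD4+ T cells, and the invariant chain is the protein that escorts it. Their genes were followed in microglia, the resident macrophages of the brain, sorted from mice of different age and treatment. The set was given by name as the invariant chain gene Cd74, the H2-A chains H2-Aa and H2-Ab1, the beta chain H2-Eb1 and the peptide-exchange chain H2-DMa, so far as the deposited table of transcript abundances lists them. The genes were thus chosen by name and by having a line in that table, and with earlier results of these data known. It held 3 of these 5 names, Cd74, H2-Aa and H2-Ab1, among 13834 lines, and H2-Eb1 and H2-DMa were not analysed here. All 3 passed the filter on low values. A listed gene had a value above 0 in every library, so detection of these 3 genes throughout is part of how they were chosen and no finding.

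RNA was sequenced from 15 libraries in 4 groups. AF-high (n = 5) and AF-low (n = 3) were microglia of high and of low autofluorescence from untreated 18-month-old mice. The young group (n = 3) came from untreated 3-month-old mice. The PLX5622 group (n = 4) came from 18-month-old mice that received PLX5622, which inhibits the CSF1 receptor on which microglia depend for survival. The labels do not state the strain, the sex, the markers used for sorting, how much PLX5622 was given and when, how autofluorescence was gated in the young and PLX5622 groups, or whether a library was 1 animal or a pool. Levels are in TPM, a transcript abundance scaled to the library total and to transcript length, so levels of different genes can be set side by side. Depth in reads is unknown. Differences are in log2(TPM + 1) ± SE from limma over 13175 genes. Called means a Benjamini-Hochberg adjusted p under 0.05.

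Class II molecules are made of an alpha and a beta chain. In the endoplasmic reticulum the pair is bound by the invariant chain, which blocks the peptide groove and directs the complex to endosomes. There proteases such as cathepsin S cut the invariant chain, H2-DM exchanges its last fragment for peptide, and H2-O restrains H2-DM. Transcription depends on the coactivator CIITA and on RFX, CREB and NF-Y factors bound at paired promoter elements called the X and Y boxes, and interferon-gamma induces it. Resting microglia carry little class II, while border-associated macrophages and dendritic cells of the brain's edges carry more.

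On GRCm38 (GENCODE M21), H2-Ab1 (ENSMUSG00000073421.6, beta chain) lies at chr17:34257689-34269419 on the plus strand. H2-Aa (ENSMUSG00000036594.15, alpha chain) lies beside it at chr17:34282744-34287823 on the minus strand. The annotation gives H2-Aa 4 transcripts and H2-Ab1 8, and the values are per gene.

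The promoter stretches below, read 5′ to 3′ on the gene's strand from RefSeq (GRCm38.p6), are shown because they carry letters of both promoter elements. H2-Aa was the only one of the 3 genes matched in the promoter table, and 2 other class II chains measured in the same libraries are set beside it. The fourth chain with an entry, H2-DMb1, held TGATTGG but not GCAAC in its window of 300 bases and is not printed. Capitals mark GCAAC, letters within the X box, and TGATTGG, the Y box core, which is an inverted CCAAT.
H2-Aa (chr17:34287867-34287924, minus strand): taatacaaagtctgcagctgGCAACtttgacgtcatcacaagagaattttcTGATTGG
H2-Oa (chr17:34092283-34092340, plus strand): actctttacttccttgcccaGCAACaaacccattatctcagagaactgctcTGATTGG
H2-Ob (chr17:34238798-34238852, plus strand): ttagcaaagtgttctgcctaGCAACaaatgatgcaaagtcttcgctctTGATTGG

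In the H2-Aa stretch GCAAC began 81 and TGATTGG 50 bases before the transcription start, with 26 bases between them. H2-Oa had the same spacing of 26 bases and H2-Ob 23. In all RefSeq windows of 300 bases, reaching from 250 before to 50 after a start, TGATTGG was found on either strand in 7.82% of 32851 and GCAAC in 35.2%. GCAAC followed 15 to 35 bases later by TGATTGG on one strand was found in 67 windows, or 0.204%. The 2 motifs do not overlap in these stretches. The letters were chosen after the sequences were seen, and a match describes the sequence without showing that a factor binds it.

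Cd74 was the most abundant of the 3 by mean in every group and the only one that passed the test in any comparison. The gene (ENSMUSG00000024610.15, 5 transcripts) lies apart from the class II chains, at chr18:60803848-60812652 on the plus strand, and the microRNA gene Mir5107 overlaps one of its exons on the same strand. In young libraries it stood at 64.5, 78.2 and 75.4 TPM, and in AF-low libraries at 151, 123 and 134 TPM. In AF-high libraries it stood at 81.6, 90.7, 78.6, 70.1 and 74.7 TPM, and in PLX5622 libraries at 58.1, 51.8, 43.0 and 59.1 TPM. Every AF-low library lay above, and every PLX5622 library below, all libraries of the other groups, while AF-high and young libraries overlapped. By mean the order ran from AF-low at 136 ± 13.9 TPM (SD, n = 3) through AF-high at 79.1 ± 7.77 (n = 5) and young at 72.7 ± 7.26 (n = 3) to PLX5622 at 53.0 ± 7.43 (n = 4), and AF-high and young, neighbours in that order, did not differ beyond their spread.

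H2-Aa, whose product pairs with that of H2-Ab1, was even in 2 groups and scattered in the other 2. It stood at 26.7, 29.5 and 31.4 TPM in young and at 88.2, 73.3 and 96.0 TPM in AF-low libraries. AF-high libraries 1 to 5 gave 24.3, 174, 38.1, 12.6 and 1.26 TPM, and PLX5622 libraries 1 to 4 gave 2.59, 20.2, 19.0 and 21.9 TPM. AF-low libraries lay above all young and all PLX5622 libraries, PLX5622 libraries lay below all young ones, and the AF-high libraries spanned the whole range, with AF-high 2 the highest and AF-high 5 the lowest of all 15. Group means ran from AF-low at 85.8 ± 11.6 TPM through AF-high at 50.05 ± 70.6 and young at 29.2 ± 2.36 to PLX5622 at 15.9 ± 8.98. Because AF-high overlapped every other group, its place in this order is not resolved.

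H2-Ab1 was the least abundant and overlapped between all groups. Young libraries had 7.07, 10.2 and 18.0 TPM, and AF-low libraries 45.2, 9.91 and 24.2 TPM. AF-high libraries had 2.88, 23.4, 6.25, 7.28 and 3.33 TPM, and PLX5622 libraries 7.09, 7.42, 11.2 and 5.27 TPM. AF-low 1 was the highest library, and AF-low 2 lay within the range of the young group. Means were 26.4 ± 17.7 TPM in AF-low, 11.8 ± 5.60 in young, 8.63 ± 8.47 in AF-high and 7.76 ± 2.51 in PLX5622, with no neighbours in this order separated beyond their spread.

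**Figure D1:**
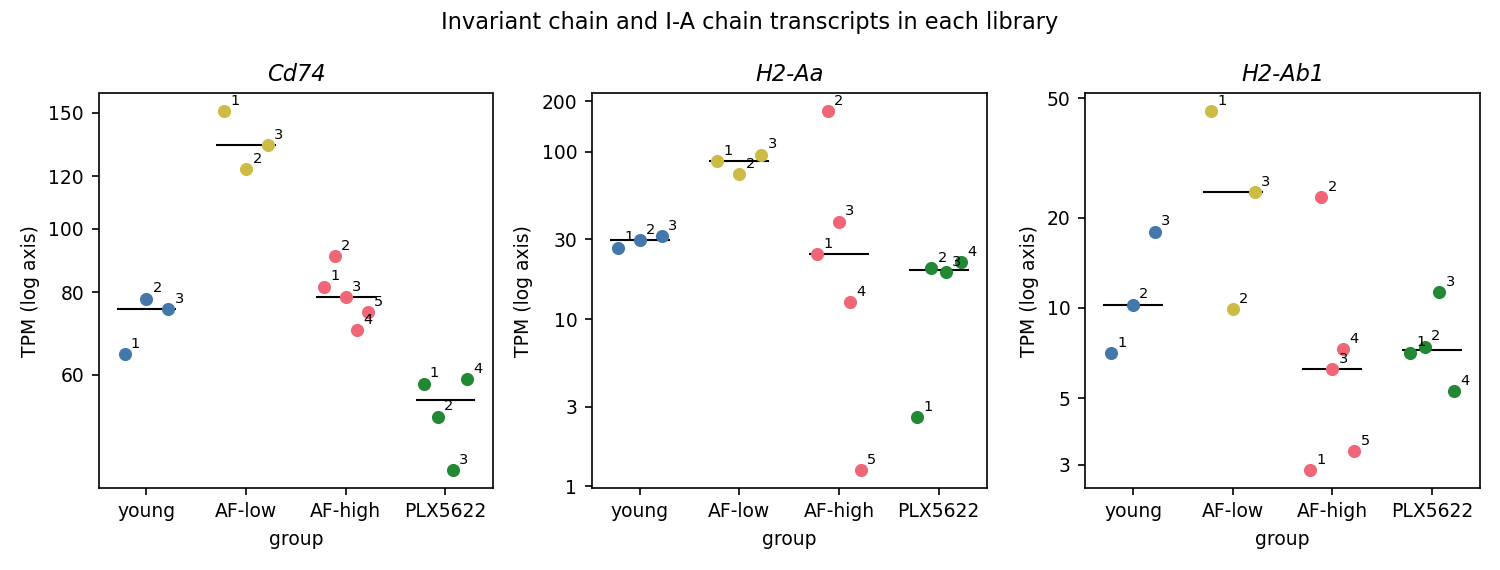
Level of Cd74, H2-Aa and H2-Ab1 in each library in TPM (log axes), by group; points carry the replicate number and the horizontal line is the group median. Cd74 separates AF-low above and PLX5622 below the rest, H2-Aa runs from 1.26 to 174 TPM within AF-high, and H2-Ab1 overlaps between all groups.

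The scatter differed between the 3 genes. The SD within groups, pooled over the 15 libraries in log2(TPM + 1), was 0.163 for Cd74, 1.54 for H2-Aa and 0.847 for H2-Ab1. Genes of like mean level, within 0.5 log2 units, had a median SD of 0.268 around Cd74 (n = 1394), 0.32 around H2-Aa (n = 2199) and 0.391 around H2-Ab1 (n = 2277). Of those neighbours 11.5% varied less than Cd74, 99.8% less than H2-Aa and 94.5% less than H2-Ab1. The spread of H2-Aa was 2.29 in AF-high and 1.29 in PLX5622 libraries against 0.197 in AF-low and 0.114 in young ones. These are descriptions without a test.

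Between AF-low and PLX5622 microglia, both from 18-month-old mice, Cd74 fell in PLX5622 by 1.35 ± 0.14 on the log2 scale (adjusted p = 0.00071), its mean being 2.57-fold lower, with all 4 PLX5622 libraries below all 3 AF-low ones. It was the only call among the 3 genes, where 0.144% of all genes were called, all 19 of them lower in PLX5622. By p it ranked 2 among all genes tested. H2-Aa, at -2.66 ± 1.01, also showed no overlap but was not called (adjusted p = 0.251), and H2-Ab1, at -1.46 ± 0.57, overlapped (adjusted p = 0.268). Of all genes 10.9% were lower in PLX5622 with no overlap and 5.31% higher. The median difference of the 3 genes was -1.46, and that of all genes -0.05. The Cd74 call held in 25 of 26 alternative settings and was lost with only the 2 groups in the fit, at adjusted p = 0.0688.

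Between AF-high and AF-low microglia, which asks what goes with autofluorescence at 1 age, 0 of the 3 genes and 0% of all genes were called by limma (1082 genes, or 8.21%, had an unadjusted p under 0.05). Cd74 differed by -0.77 ± 0.14 with no overlap and had the smallest p of all genes tested, yet its adjusted p was 0.441. H2-Aa was at -1.96 ± 0.96 (adjusted p = 0.629) and H2-Ab1 at -1.63 ± 0.55 (adjusted p = 0.479), both with overlapping groups. The share of all genes lower in AF-high with no overlap was 1.71%. The median of the 3 differences was -1.63, against -0.04 for all genes.

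The comparison with young microglia asks what goes with age and gate together. How autofluorescence was gated in the young group is not stated, so age and gate cannot be told apart. AF-low against young, 0 of the 3 genes was called, where 0.0455% of all genes were, 6 in number and all higher in AF-low. Cd74 was at 0.89 ± 0.15 with adjusted p = 0.056, above the threshold, and rank 7 by p, and its libraries did not overlap. H2-Aa, at 1.52 ± 1.08 (adjusted p = 0.605), did not overlap either, and H2-Ab1, at 0.96 ± 0.61 (adjusted p = 0.554), did. These SEs pool the spread of all 4 groups. For H2-Aa that spread was 0.197 in AF-low and 0.114 in young, against 2.29 in AF-high. With only AF-low and young in the limma fit, H2-Aa had adjusted p = 0.1295, still not called. Of all genes 8.25% were higher and 11.1% lower in AF-low with no overlap. The Cd74 difference passed in 7 of 26 alternatives, among them without AF-high 2 (adjusted p = 0.03785), without AF-low 2 (0.0237) or without young 3 (0.0424).

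AF-high against young, Cd74 was at 0.12 ± 0.14 (adjusted p = 0.795), H2-Aa at -0.45 ± 0.96 (adjusted p = 0.906) and H2-Ab1 at -0.67 ± 0.55 (adjusted p = 0.697). None was called, where 0% of all genes were called by limma (1446, or 11%, at an unadjusted p under 0.05). None was free of overlap, where 2.63% of all genes were higher and 5.15% lower in AF-high without overlap. The sign for H2-Aa rested on 1 library, since without AF-high 5 the difference was 0.38. Both old groups were set against the same young libraries, so their values are given here side by side and not as a test of each other.

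Set against AF-high, PLX5622 libraries had Cd74 at -0.58 ± 0.13 (adjusted p = 0.0541, rank 90), with no overlap. H2-Aa was at -0.69 ± 0.89 (adjusted p = 0.762) and H2-Ab1 at 0.17 ± 0.50 (adjusted p = 0.91), both overlapping. Thus 0 of the 3 was called, where 0.63% of all genes were, 21 higher (0.159%) and 62 lower (0.471%) in PLX5622, a split that became 35 and 36 under quantile normalization. Of all genes 4.18% were lower and 2.37% higher with no overlap. Cd74 passed in 5 of 26 alternatives, including without AF-high 4 (adjusted p = 0.0408), AF-low 1 (0.0404) or AF-low 2 (0.04843). The H2-Aa difference was 0.05 without AF-high 2, and that of H2-Ab1 was -0.07 without AF-high 1, -0.03 without AF-high 5 and -0.005 without PLX5622 3, so neither sign was settled.

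PLX5622 against young, Cd74 was at -0.45 ± 0.14 (adjusted p = 0.53), H2-Aa at -1.14 ± 1.01 and H2-Ab1 at -0.49 ± 0.57 (adjusted p = 0.979 for both). None of the 3 was called, where 0.0911% of all genes were, 8 higher (0.0607%) and 4 lower (0.0304%), and 5.23% had an unadjusted p under 0.05. Cd74 and H2-Aa did not overlap, PLX5622 being lower, as was so for 12.7% of all genes, with 3.28% higher. In this comparison the median of all genes was itself at -0.115 in the deposited scale, and at -0.0085 after median-of-ratios scaling. Relative to that shift Cd74 was lower by less.

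**Figure D2:**
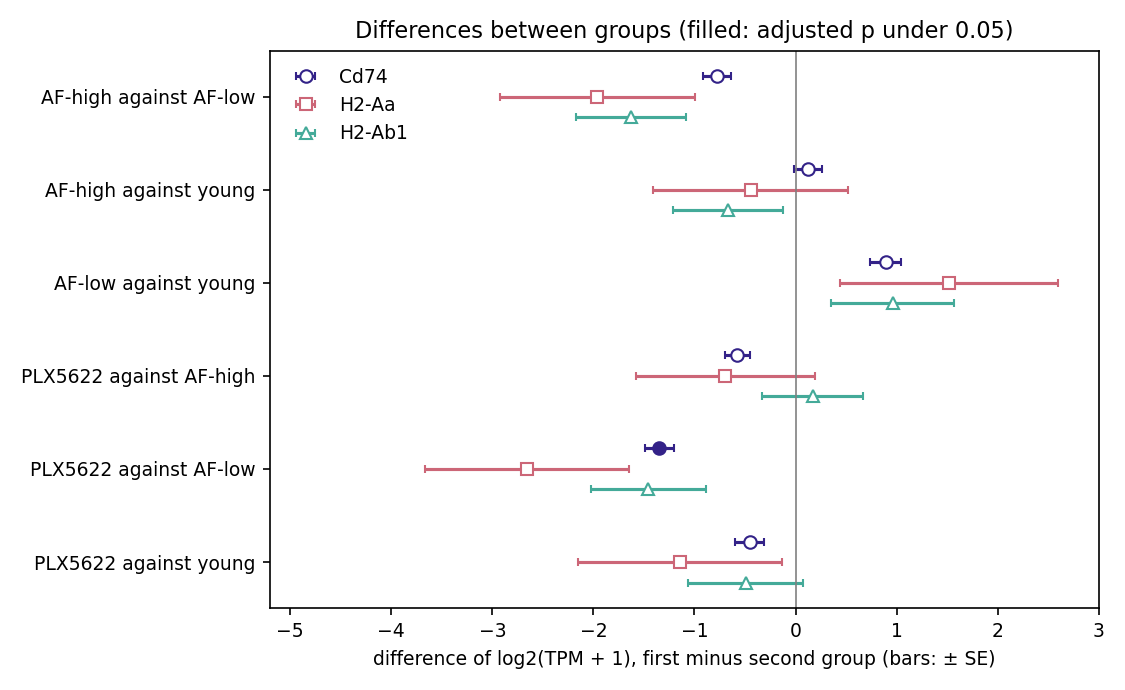
Difference in log2(TPM + 1) of each of the 3 genes in the 6 comparisons, first-named group minus second, with bars of 1 SE; filled points have an adjusted p under 0.05. One point is filled, Cd74 in PLX5622 against AF-low at -1.35, and the bars of H2-Aa are the widest.

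The proportion of Cd74 to H2-Aa was narrow in young and AF-low microglia and wide in the other groups. Cd74 exceeded H2-Aa by 2.40 to 2.65 times in young and by 1.40 to 1.71 times in AF-low libraries. In PLX5622 the ratio was 2.26 to 2.69 in 3 libraries and 22.4 in PLX5622 1. In AF-high it ran from 0.521 in AF-high 2, the 1 library with more H2-Aa than Cd74, to 59.5 in AF-high 5. The alpha chain H2-Aa exceeded its partner H2-Ab1 in 13 of 15 libraries. The exceptions were AF-high 5, at a ratio of 0.377, and PLX5622 1, at 0.365, which are also the lowest H2-Aa values of their groups. The highest ratio was 8.45, in AF-high 1. These ratios were not tested.

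**Figure D3:**
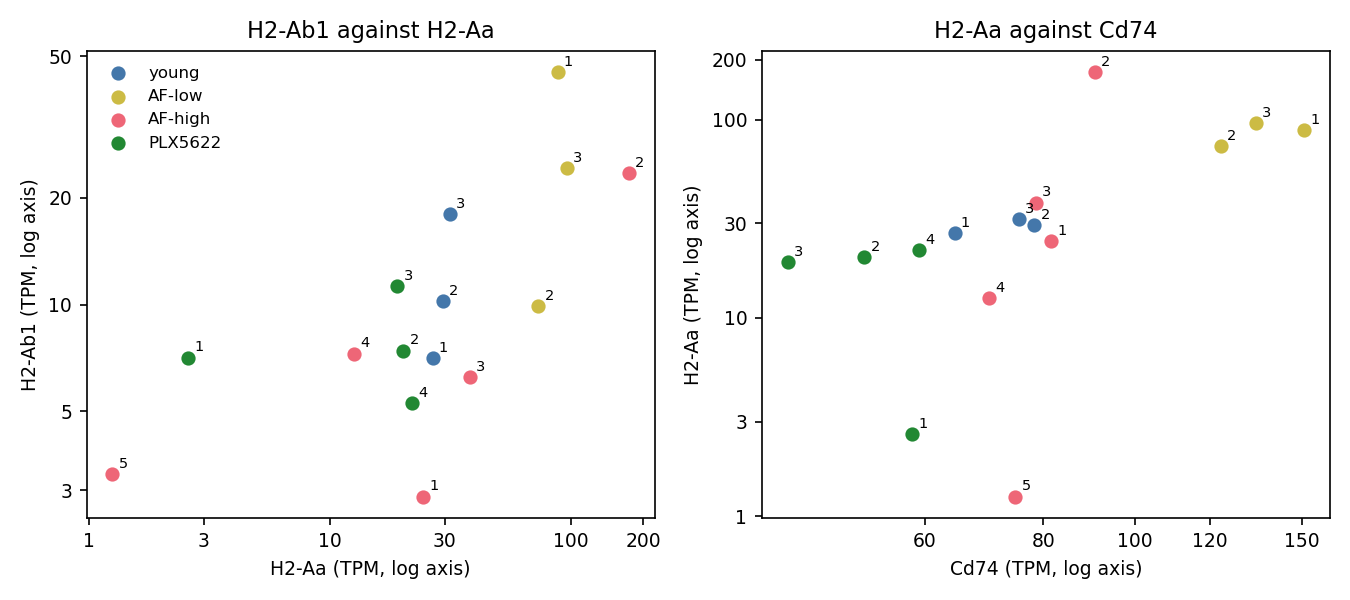
Levels of H2-Ab1 against H2-Aa, and of H2-Aa against Cd74, in TPM on log axes, 1 point per library coloured by group. AF-high 5 and PLX5622 1 lie far to the low-H2-Aa side, and the AF-low libraries lie together at high Cd74.

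Across the 15 libraries the 3 pairs of genes differed in how far their levels went together. Pearson's r was 0.685 between H2-Aa and H2-Ab1 (permutation p = 0.00534, adjusted 0.032 over 6 relations), and Spearman's rho 0.614 (permutation p = 0.0175, adjusted 0.0525). Without the 2 libraries farthest from the median of the first-named gene, here H2-Aa, r was 0.704. The same rule was used for every pair, and extremes of the second gene were not looked for. Between Cd74 and H2-Aa r was 0.588 (permutation p = 0.0213, adjusted 0.0555; rho 0.8, permutation p = 0.00059, adjusted 0.00354), and 0.446 without 2 libraries. Between Cd74 and H2-Ab1 r was 0.563 (permutation p = 0.0278, adjusted 0.0555; rho 0.389, permutation p = 0.153), and 0.126 without 2 libraries, so this pair passed on neither measure after adjustment. Libraries of a group share its condition. After each group's mean was subtracted, r was 0.551 for H2-Aa and H2-Ab1 (permutation p = 0.117) and 0.0432 without 2 libraries, 0.258 for Cd74 and H2-Aa (permutation p = 0.4) and 0.342 for Cd74 and H2-Ab1 (permutation p = 0.22). Within groups the relation therefore did not pass the test for any pair.

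Of 6 other class II chains 3 were listed, and limma called none of them in any of the 6 comparisons. H2-DMb1 (chr17:34153072-34160230, plus strand) encodes the beta chain of the peptide exchanger H2-DM. It had 18.7, 60.8 and 19.2 TPM in AF-low, 55.7, 51.1 and 55.2 in young, 54.4, 58.9, 50.5 and 60.7 in PLX5622, and 56.6, 31.0, 20.03, 62.7 and 51.0 in AF-high libraries. Thus AF-low 1 and 3 and AF-high 2 and 3 lay below every young and PLX5622 library. Against AF-low, PLX5622 libraries were at 0.97 ± 0.39 (adjusted p = 0.277), a sign opposite to that of Cd74, H2-Aa and H2-Ab1. The difference passed in 1 of 26 alternatives, without AF-low 2 (1.51, adjusted p = 0.0364). Leaving out each library in turn gave 0.69 to 1.51, with adjusted p from 0.0364 to 0.614. The near-identical neighbour H2-DMb2 can share reads with H2-DMb1, so its value is uncertain.

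H2-Oa and H2-Ob encode the alpha and beta chains of H2-O, the brake on H2-DM. H2-Oa (chr17:34092340-34095234, plus strand) had means of 26.8 TPM in young, 28.8 in AF-low, 32.5 in AF-high and 37.1 in PLX5622, and PLX5622 was at 0.45 ± 0.24 against young with no overlap (adjusted p = 0.972). Its exons overlap BC051537 on the other strand, and the sources used here do not say whether counting used strand. H2-Ob (chr17:34238903-34254414, plus strand) had 2.90, 6.99, 9.46 and 9.28 TPM in PLX5622 and between 1.11 and 4.86 in AF-high libraries, a difference of 1.03 ± 0.32 (adjusted p = 0.135). All PLX5622 libraries but PLX5622 1 lay above all AF-high ones. Both genes carry the promoter letters shown above for H2-Aa, and their means were highest in PLX5622, where that of H2-Aa was lowest.

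The class II transcription factors were all listed (8 of 8), and limma called none in any comparison. Ciita, the coactivator gene on which class II transcription depends, was near the floor of the table at 0.182 to 2.38 TPM. AF-low 1 had the most Ciita and H2-Ab1, while AF-low 3 had the least Ciita of all 15 with H2-Aa at 96.0 TPM. For AF-low against young 4 of the 8 were positive and 4 negative. Rfx5, a subunit of the X box factor RFX, averaged 23.4 TPM for AF-low and 16.9 for young, with no overlap (0.46 ± 0.23, adjusted p = 0.45). Nfya, a subunit of NF-Y, went the other way, at 91.5 TPM for AF-low and 121 for young (-0.39 ± 0.20, adjusted p = 0.471). Libraries did not overlap either (11.1% of all genes in this direction), with at most 97.7 TPM in AF-low and at least 98.01 in young. Nfyc, another subunit of this Y box factor, had 85.3, 88.3 and 71.2 TPM in AF-low and 45.7, 38.1, 36.5 and 63.2 in PLX5622 libraries, with no overlap (-0.85 ± 0.25, adjusted p = 0.149). Of 7 interferon-gamma signalling genes 6 were tested and none was called. The receptor chain gene Ifngr2 averaged 148 TPM in AF-low and 142 in AF-high, with 99.4 for young and 90.1 for PLX5622, the last at -0.67 ± 0.23 against AF-low (adjusted p = 0.202). In that comparison 4 of the 6 genes were positive (median 0.20). AF-low against young, Jak2, a kinase of the receptor, was at -0.86 ± 0.33 (adjusted p = 0.309), and Irf1, a transcription factor that interferon-gamma induces, at -0.93 ± 0.41 (adjusted p = 0.393). Both signs were opposite to those of the 3 class II genes. Irf1 passed in 1 of 26 alternatives, without AF-low 2 (-1.48, adjusted p = 0.0469). Leaving out each library in turn gave it -1.48 to -0.51, with adjusted p from 0.0469 to 0.801.

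The endosomal processing genes (8 of 8 tested, none called) had higher means than the class II genes in every group, except Sppl2a. Sppl2a averaged 66.0 TPM in AF-low, below Cd74 at 136 and H2-Aa at 85.8. Ctss, the protease that trims the invariant chain, had means from 4728 TPM in AF-low to 5640 in young. Lgmn, the asparagine endopeptidase that takes part in its breakdown, had a mean of 675 TPM in AF-low against 885 in the young group. Lgmn was at -0.39 ± 0.12 (adjusted p = 0.225) with no overlap, as were 11.1% of all genes in this direction. Ifi30, a reductase that opens disulphide bonds of antigens, had means of 175 TPM in AF-low and 245 in PLX5622 (0.55 ± 0.20 for PLX5622 against AF-low, adjusted p = 0.231). It passed in 1 of 26 alternatives, without AF-low 2 (0.78, adjusted p = 0.0448). Leaving out each library in turn gave it 0.25 to 0.78, with adjusted p from 0.0448 to 0.628. For AF-low against young 7 of the 8 differences were negative with a median of -0.15, where all 3 class II genes were positive.

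Among turnover and costimulation genes 5 of 9 names were tested. Cd80, which gives T cells the second signal beside class II, was the only gene called in the pathway lists, and it was lower in PLX5622 libraries against both gated old groups. AF-high libraries had 107, 89.3, 87.8, 64.5 and 111 TPM of it and AF-low libraries 107, 73.1 and 128, with 55.3, 47.0 and 45.6 in young, and 35.6, 40.8, 46.0 and 51.5 in PLX5622 libraries. All 8 AF-high and AF-low libraries lay above all 7 others. In PLX5622 it fell by 1.05 ± 0.19 on the log2 scale against AF-high (adjusted p = 0.0278) and by 1.20 ± 0.21 against AF-low (adjusted p = 0.0423). The first call was lost in 8 and the second in 16 of 26 alternatives, including in both cases without any 1 of the 4 PLX5622 libraries (adjusted p from 0.0539 to 0.1255 and from 0.0719 to 0.186) or without AF-high 5 (0.0573 and 0.0511). The second was also lost without AF-low 1 (0.171), AF-low 3 (0.128) or any 1 young library (0.0622 to 0.0775). Against young, Cd80 was at 0.87 ± 0.20 in AF-high (adjusted p = 0.123) and 1.01 ± 0.23 in AF-low (adjusted p = 0.118, or 0.0237 without AF-low 2). For AF-low against young, leaving out each library in turn gave Cd80 adjusted p from 0.0237 to 0.386.

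The invariant chain is also a surface receptor for the cytokine MIF and signals there with CD44. None of the 3 listed partners was called. Cd44 also varied widely, with 81.7, 5.11 and 27.8 TPM in AF-low and 54.5, 5.16, 2.45, 5.54 and 29.5 in AF-high libraries, against 2.46 to 3.77 in young and 6.44 to 16.4 in PLX5622 libraries. Within AF-high its high libraries, 1 and 5, were not that of H2-Aa, AF-high 2, while AF-low 1 and 3 were high in both. AF-low against young, Cd44 was at 2.58 ± 0.94 with no overlap (adjusted p = 0.291).

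MHC class I, which presents peptides from within the cell, was measured in the same libraries. Its 8 genes were all tested and none was called. B2m, the shared light chain, had means of 5894 TPM in young, 7540 in AF-low, 7997 in AF-high and 8461 in PLX5622, so that PLX5622 had the highest mean for this chain and the lowest for all 3 class II genes. PLX5622 against young, B2m was at 0.52 ± 0.14 with no overlap (adjusted p = 0.295). Tap2, a subunit of the peptide transporter, averaged 14.1 TPM in AF-low, 9.11 in PLX5622, 8.84 in AF-high and 7.66 in young libraries, an order like that of Cd74 only at its top.

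**Figure D4:**
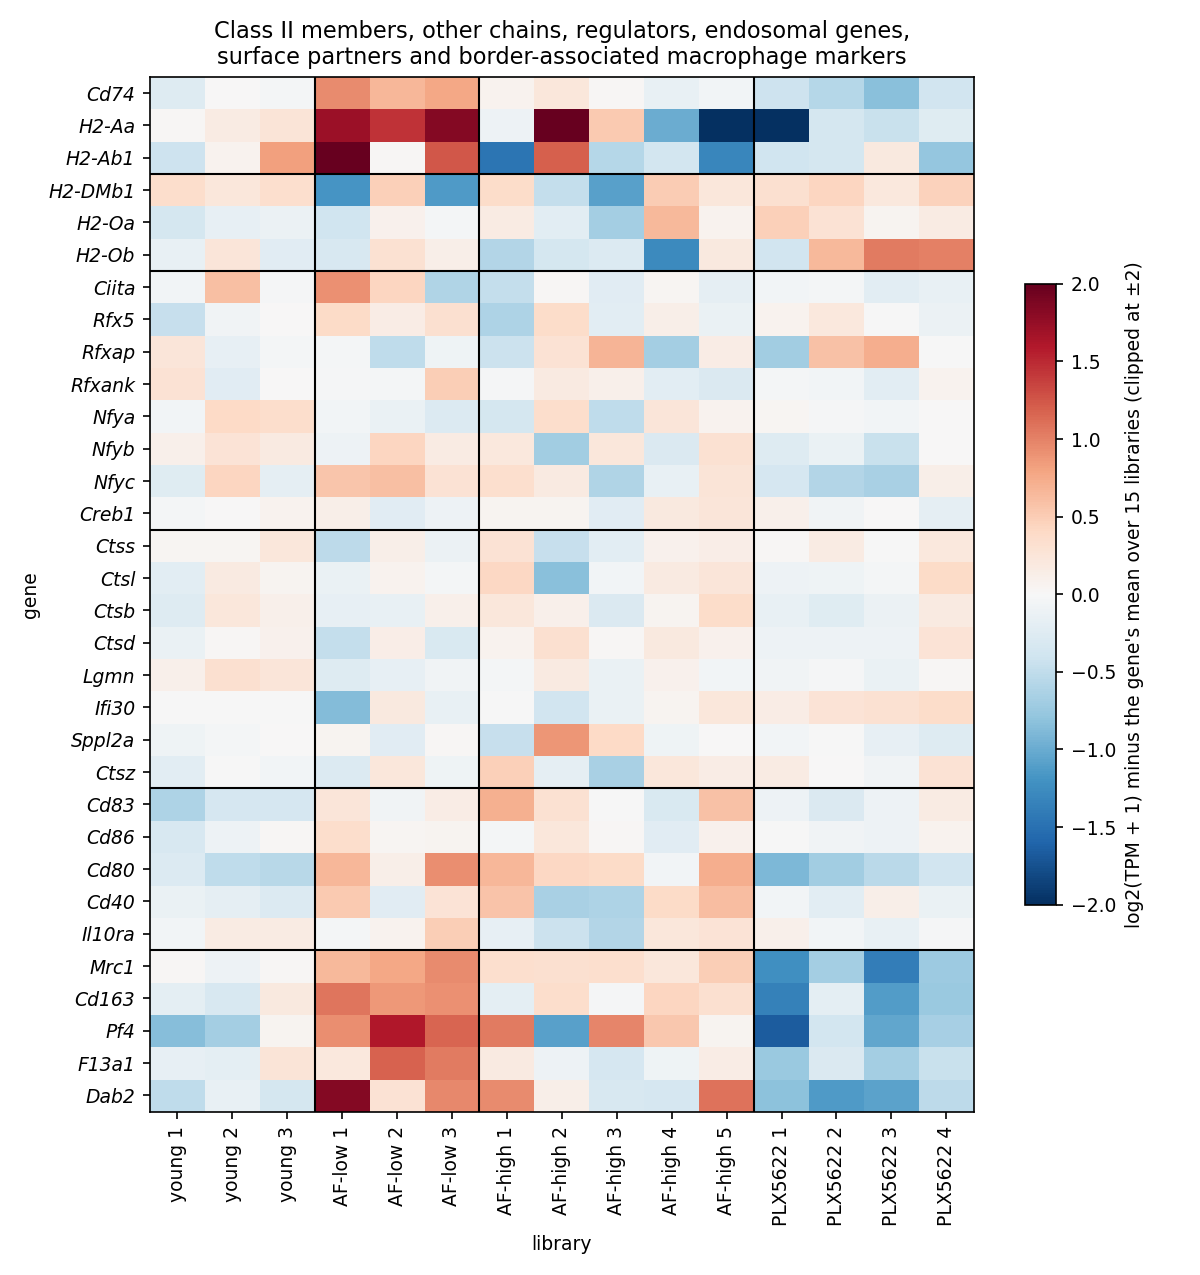
Level of each gene in each library as log2(TPM + 1) minus the gene's mean over the 15 libraries, with colours ending at -2 and 2; rows are the class II and invariant chain genes, other chains, regulators, processing genes, surface partners and border-associated macrophage markers, and columns are libraries by group. Cd74, Cd80 and Mrc1 are low across the PLX5622 columns. H2-DMb1 varies between single libraries of AF-high and AF-low, and H2-Aa between those of AF-high and of PLX5622.

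The sorted cells carried the markers of microglia: 10 of 10 were listed, with summed levels of 6587 to 9170 TPM in AF-low, 8121 to 12011 in AF-high, 10080.2 to 11701 in young and 8620 to 9271 in PLX5622 libraries. In AF-low, where Cd74 was highest, all 10 were lower than in AF-high (median 0.30 for AF-high against AF-low) and than in young (median -0.35 for AF-low against young), with none called by limma; 3 and 5 had an unadjusted p under 0.05. For PLX5622 against AF-low 6 were positive and 4 negative (median 0.18). The part of these shifts in the Cd74 result was not tested. Cells of other types that carry class II were looked for in the same way, since in bulk RNA fewer cells of a type and less RNA per cell cannot be told apart. Border-associated macrophage markers took, by their summed level, the same order of groups as Cd74. All 13 were listed, none had a mean under 1 TPM, and their summed level was 481 to 622 TPM in AF-low, 335 to 465.7 in AF-high, 251 to 317 in young and 190 to 240 in PLX5622 libraries, without overlap between any of these groups. Stab1 and Dab2 had the highest means of the list in every group and so weighed most in the sum. Not every marker took the order of the sum. Stab1 and Lyve1 had their highest mean in AF-high, Stab1 with 184 TPM there against 173 for AF-low. Folr2 had its lowest mean in AF-high, and Siglec1 and Clec12a had theirs in young rather than in PLX5622. F13a1 averaged 6.84 TPM in AF-high and 6.88 in young, so these groups did not take the sum's order. For PLX5622 against AF-low 13 of 13 markers were negative with a median of -1.35, and 3 were called. For AF-low against young 13 of 13 were positive (median 0.84), and for AF-high against AF-low 11 of 13 were negative (median -0.48), with none called by limma in either. Their part in the Cd74 result was not tested.

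Mrc1, the mannose receptor of these macrophages, had 28.9, 31.7 and 36.0 TPM in AF-low, 21.4 to 25.8 in AF-high, 16.8 to 18.5 in young and 6.33 to 10.97 in PLX5622 libraries, with no overlap between any groups. It fell in PLX5622 by 1.79 ± 0.19 against AF-low (adjusted p = 0.00071) and by 1.34 ± 0.16 against AF-high (adjusted p = 0.00603). Cd163, a scavenger receptor, fell by 1.80 ± 0.27 against AF-low (adjusted p = 0.02), a call lost without AF-low 1 (0.106), PLX5622 1 (0.0752) or PLX5622 3 (0.121). F13a1, the coagulation factor XIII A chain, fell by 1.35 ± 0.25 (adjusted p = 0.047) and lost its call in 17 of 26 alternatives, among them without AF-high 1, AF-high 4, AF-high 5, AF-low 3 or any 1 young or PLX5622 library (0.05352 to 0.216). With only the 2 groups in the fit none of these 3 AF-low calls was kept (0.0789 for Mrc1 and Cd163, 0.0856 for F13a1), as for Cd74.

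Other cell types were looked for by their own lists. Of 11 dendritic cell markers 8 were listed, summing to 49.0 to 85.1 TPM in AF-low, 52.7 to 71.9 in AF-high, 41.7 to 45.4 in young and 33.8 to 35.6 in PLX5622 libraries. Batf3 had the highest mean of the list in every group, from 18.1 TPM in PLX5622 to 35.2 in AF-high, and so weighed most. Group means of Xcr1 lay between 5.15 and 5.31 TPM. The defining gene Flt3 was at 0.634 to 1.98 TPM. Cd209a, a lectin of dendritic cells, fell in PLX5622 by 1.91 ± 0.34 against AF-high (adjusted p = 0.0289), a call lost without AF-high 5 or any 1 PLX5622 library (0.0539 to 0.116). The Cd209a mean was highest in AF-high, at 7.85 TPM against 4.23 in AF-low, an order unlike that of Cd74. Of 8 B cell markers 5 were listed, with overlapping sums of 216 to 330 TPM in AF-high, 249 to 323 in AF-low, 250.03 to 279 in young and 192 to 245 in PLX5622 libraries, which in 3 of the 4 PLX5622 libraries exceeded the sum of the border-associated macrophage list. Most of the B cell sum was Ighm, with group means from 162 TPM in PLX5622 to 220 in AF-low. Group means of Cd79b and Ms4a1 lay between 4.39 and 13.7 TPM. Of 7 monocyte markers 4 were listed, summing to 35.2 to 59.0 TPM over all libraries. The T and NK cell list had 1 of 8 genes, Cd3d, and the neutrophil list 0 of 7. Listed genes were above 0 in every library and the filter is not given, so unlisted markers do not show that cells were absent. AF-high 2, which had the most H2-Aa of all libraries, also had 39.7 TPM of Cd3d, against 3.54 to 8.94 in the other 14. The part of these cells in the H2-Aa value was not tested.

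Other library traits did not line up with the class II values in 1 way. Mitochondrial transcripts took 5.38% of TPM in AF-high 2 and 7.66% in AF-high 3, against 1.57% to 2.70% elsewhere, and H2-Aa was highest in the first and at 38.1 TPM in the second. Markers of choroid plexus and astrocytes summed to 8950 and 5997 TPM in young 1 and 2 and to 295 in young 3, while the H2-Aa values of those libraries lay between 26.7 and 31.4 TPM. Leaving young 1 and 2 aside cannot change the Cd74 difference of PLX5622 against AF-low, since young libraries enter that comparison only through the shared spread. The part of these markers in the comparisons with young was not tested.

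The genes whose levels followed the 3 class II genes most closely over the 15 libraries were ranked by Pearson's r with the mean of the 3 standardised values, among 8951 genes. At the top were Tsr3 (0.875), Gpr3 (0.852), Lsm14b (0.822), Trappc10 (0.821), Maco1 (0.808), Rsbn1 (0.805), Hip1 (0.804) and Prrc2a (0.80). The macrophage marker Mrc1 came to r = 0.616 at rank 266, and the class II chain H2-DMb1 to -0.681 at rank 8918. After each group's mean was subtracted the first were Baiap2 (0.908), Cpsf1 (0.903), Gpr3 (0.901), Plekho1 (0.90), Dazap2 (0.898), Saa3 (0.873), Tet3 (0.873) and Ahsa2 (0.869), and Mrc1 stood at -0.0132, rank 4666. Gpr3, a G protein-coupled receptor gene, was in both lists. The points share libraries and their composition, and the values carry no test.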

How the data were processed

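Per the labels, sorted microglia were kept in RNAprotect and RNA was extracted with RNeasy, then amplified (Ovation) for low-input libraries. The authors deposited TPM values, 1 line per gene symbol. FastQC 0.11.8, Salmon 1.0.0 and DESeq2, on GRCm38 (mm10), are named per the submitters' processing notes; the sources used here do not give the filter, annotation or commands. TPM keeps no depth, so no counting interval was computed. Totals were 956489 to 963145 TPM, with 0 values at 0 and 0 identical library pairs; 19 symbols read as dates were not used.

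Here log2(TPM + 1) of the 13175 genes with at least 1 TPM in at least 3 libraries was fitted with limma 3.58.1 (R 4.3.3; lmFit, eBayes with trend, all 15 libraries, group only; residual degrees of freedom 11, prior 4.151 in the median), two-sided, with Benjamini-Hochberg adjustment over all genes in each of 6 comparisons. Differences on this scale understate those of low genes. The p-values measure the spread between libraries, which the titles call biological replicates. The steps were tested on simulated data. The members and lists were chosen with earlier results of these data known. Named from pathway lists were called genes or, with none, up to 2 with the smallest p in a comparison; from marker lists, up to 4 with the highest mean, and defining markers near 0; by likeness, the first 8 with a mean of at least 5 TPM, passing over numbered gene models, pseudogenes, and mitochondrial and ribosomal protein genes. Ciita, Ctss, Sppl2a, Flt3, Cd3d and the called marker genes outside that rule were named after their values were seen. Alternatives were other pseudocounts, filters and scalings, array weights, 2-group fits, a replicate block and leaving out libraries. Figures used matplotlib 3.10.9 in Python 3.11.15.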

Additional observations from a re-analysis of the deposited data

Results flagged for a closer look

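For 6 genes (Cd74, H2-Aa, H2-Ab1, H2-DMb1, H2-Oa and H2-Ob) the AF-high and PLX5622 libraries were searched for values standing apart, and groups of 3 were not. In 3 of these 12 sets 1 library lay farther from the others than Dixon's 95% limit. For normally distributed values chance gives this in about 1 in 20 sets. The search used TPM, which need not be so distributed, and was not repeated on the log2 scale. H2-Aa in AF-high 2, at 173.927 TPM, had a gap to the next library of 0.786 of the group's range, with a limit of 0.71. H2-Ab1 in the same library, at 23.4059 TPM, also had a gap of 0.786 of the range. The flags of H2-Aa and H2-Ab1 in AF-high 2 share a library and are not independent. H2-Aa in PLX5622 1, at 2.59113 TPM, had a gap of 0.851 with a limit of 0.829. Without AF-high 2 the H2-Aa difference of PLX5622 against AF-high was 0.05 rather than -0.69. No Cd74 value in these 2 groups passed the limit.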

How the results depend on the processing

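The differences of the 3 genes, the counts of calls and the main differences of other named genes were recomputed under 26 other settings, 15 of which leave out 1 library. Levels, ratios, correlations, likeness ranks and marker sums were not. Of 468 recomputed differences of the 3 genes, 445 kept their direction and their side of the threshold, 13 newly passed, 1 no longer passed and 9 changed sign. The count of the 3 genes called was 0 for PLX5622 against AF-low with only the 2 groups compared. It was 1 for AF-low against young with a pseudocount of 5, median-of-ratios scaling, quantile normalization or array weights (0 to 1 leaving out libraries), 1 for PLX5622 against AF-high with a filter of 5 TPM or array weights (0 to 1), and 1 for PLX5622 against young with array weights. H2-Aa changed sign for AF-high against young with a replicate block (0.51) and without AF-high 5 (0.38; -1.19 to 0.38 leaving out libraries). For PLX5622 against AF-high it did so with array weights (0.33), without AF-high 2, 3 and AF-low 1 together (0.57) and without AF-high 2 (0.0507; -1.52 to 0.0507), and H2-Ab1 with a replicate block (-0.0302) and without AF-high 1 (-0.0699), AF-high 5 (-0.0302) or PLX5622 3 (-0.0049; -0.0699 to 0.594). The cause of these shifts was not tested.

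Genes called for AF-high against AF-low were 0, and 0 to 1 leaving out libraries. For AF-high against young they were 0, then 6 with median-of-ratios scaling, 1 with quantile normalization, 129 with array weights and 0 to 56 leaving out libraries. For AF-low against young they were 6, then 12, 11 and 44 under those settings, 0 with only the 2 groups compared, with a replicate block or with young 1 and 2 left aside, 1 with AF-high 2, 3 and AF-low 1 left aside, and 0 to 182 leaving out single libraries. For PLX5622 against AF-high they were 83, then 441 with array weights, 7 with only the 2 groups, 0 with a replicate block, 3 without young 1 and 2, 295 without the 3 old libraries and 1 to 205. For PLX5622 against AF-low they were 19, then 6, 4 and 89 under the scalings and weights, 0 with 2 groups, 3 with a replicate block, 3 without young 1 and 2, 45 without the 3 old libraries and 2 to 398. For PLX5622 against young they were 12, then 22 with quantile normalization, 420 with array weights, 59 with 2 groups, 3 with a replicate block, 0 without young 1 and 2, 30 without the 3 old libraries and 1 to 52.

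Deviations of same-numbered libraries correlated between -0.0812 and 0.141, and 4 of the 15 libraries correlated best with one of their own number, so the numbers were not taken to pair the libraries. The labels do not say whether AF-high and AF-low libraries share an animal; AF-high 5 with AF-low 3 (0.172) and AF-high 4 with AF-low 2 (0.123) correlated best with each other across numbers. Under the replicate block Cd74 in PLX5622 against AF-low had adjusted p = 0.0349. Lost under it were the calls against AF-high of Mrc1 (adjusted p = 0.0751), Cd209a (0.0927) and Cd80 (0.111), and against AF-low of Cd163 (0.1002), Cd80 and F13a1 (0.183 for both). Library depth is unknown, and values near 1 TPM, such as those of Ciita, have no known sampling error.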
